A study of Mus musculus with 12 samples.

Results

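The collagen chain genes are the genes for the polypeptides from which collagens are built. They were taken as every gene whose name in the deposited tables reads Col, a number, the letter a and a number, with the level summed by gene ID. That gave 44 genes of the 54532 in the tables. By the structure of the encoded chain, 11 were fibrillar, 6 basement membrane, 9 FACIT (fibril-associated), 4 transmembrane, 6 beaded filament, 3 short-chain network, 2 multiplexin, 1 anchoring fibril, and 2 of other kinds.

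RNA was sequenced from the colon and the urinary bladder of male mice aged 5 to 7 weeks, and the RNA came from all cell types of the organ. All mice carried floxed *Yap1* and *Wwtr1* alleles, the genes of the transcriptional co-activators YAP and TAZ, and all received 1 mg of tamoxifen a day on 5 days. Y/T KO mice also carried Myh11CreERT2, a tamoxifen-activated Cre recombinase driven from the promoter of smooth muscle myosin heavy chain, whereas Ctrl mice were Cre negative. Tissue was taken on day 7 after the first dose. Each of the 4 groups (Ctrl colon, Y/T KO colon, Ctrl bladder, Y/T KO bladder) had 3 libraries, each from a different mouse. The 12 libraries came from 9 mice, of which mice 788, 783, and 780 gave both organs. Because Ctrl mice had no Cre, activated Cre and loss of the floxed genes cannot be told apart.

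Collagen chains wind around each other into helical molecules, and the class of chain sets what the molecule builds. Fibrillar collagens make the tension-bearing fibers of the wall, FACIT collagens coat those fibers, type IV collagens make the sheet of the basement membrane that surrounds each smooth muscle cell, type VI collagens make fine filaments around cells, and transmembrane collagens sit in the cell surface. In the gut and bladder wall fibroblasts and smooth muscle cells both make collagen, and the chains must be hydroxylated, folded by the chaperone HSP47, trimmed, and crosslinked before they carry load.

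Promoter windows, 250 bases before to 50 after the gene start, were taken from RefSeq on GRCm38.p6, where 35 of the 44 genes had an entry. *Col1a1*, *Col2a1*, *Col4a3*, *Col5a2*, *Col9a3*, *Col12a1*, *Col14a1*, *Col22a1*, and *Col26a1* had none. *Col4a1* and *Col4a2* are shown because their chains join in the same type IV molecule and their genes start head to head: the annotated genes overlap by 22 bases on opposite strands, and their windows share the 78 bases printed in capitals. *Col4a1* lies at chr8:11198423-11312826 on the minus strand, with the window chr8:11312777-11313076, and *Col4a2* at chr8:11312805-11449287 on the plus strand, with the window chr8:11312555-11312854. Both are printed from 5′ to 3′ on the strand of the gene.
Col4a1: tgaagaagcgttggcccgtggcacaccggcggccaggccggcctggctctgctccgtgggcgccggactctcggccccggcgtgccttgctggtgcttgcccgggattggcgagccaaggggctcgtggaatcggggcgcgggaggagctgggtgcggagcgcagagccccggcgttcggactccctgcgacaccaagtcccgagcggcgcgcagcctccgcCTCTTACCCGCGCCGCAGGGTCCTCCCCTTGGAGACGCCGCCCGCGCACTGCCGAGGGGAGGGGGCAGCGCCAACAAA
Col4a2: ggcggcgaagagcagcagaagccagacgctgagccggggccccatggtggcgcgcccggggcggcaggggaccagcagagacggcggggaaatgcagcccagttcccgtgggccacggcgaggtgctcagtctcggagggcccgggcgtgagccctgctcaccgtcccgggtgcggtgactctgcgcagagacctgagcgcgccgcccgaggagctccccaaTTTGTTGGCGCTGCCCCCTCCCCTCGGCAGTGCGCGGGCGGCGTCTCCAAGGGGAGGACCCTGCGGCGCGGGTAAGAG

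*Col23a1* (chr11:51289920-51583918, plus strand) is shown because it alone passed the test of the knockout in the main comparison. Its window is chr11:51289670-51289969.
Col23a1: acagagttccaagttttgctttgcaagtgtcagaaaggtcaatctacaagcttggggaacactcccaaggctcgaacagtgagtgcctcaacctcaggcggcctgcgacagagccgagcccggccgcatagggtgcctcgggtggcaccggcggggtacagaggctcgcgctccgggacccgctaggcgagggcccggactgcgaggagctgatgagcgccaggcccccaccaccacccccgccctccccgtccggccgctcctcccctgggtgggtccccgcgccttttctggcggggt

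The core motif of the TEAD factors through which YAP and TAZ bind DNA, GGAATG on either strand (CATTCC on the other), was searched for in all windows. It was present in 5 of the 38 windows of collagen genes (13.2%), against 14.7% of all 32851 windows. The 5 genes were *Col3a1*, *Col4a6*, *Col6a2*, *Col18a1*, and *Col20a1*. The CArG box of serum response factor, searched for on both strands, was present in 1 collagen window, that of *Col6a4* (2.63%), against 1.63% of all windows. A match is a run of letters, and no binding was measured here. The windows of *Col18a1* (chr10:77113656-77113955, minus strand, 1 of 2 for that gene) and *Col3a1* (chr1:45311288-45311587, plus strand) are shown with GGAATG or CATTCC in capitals, as examples with 2 matches and 1 match.
Col18a1: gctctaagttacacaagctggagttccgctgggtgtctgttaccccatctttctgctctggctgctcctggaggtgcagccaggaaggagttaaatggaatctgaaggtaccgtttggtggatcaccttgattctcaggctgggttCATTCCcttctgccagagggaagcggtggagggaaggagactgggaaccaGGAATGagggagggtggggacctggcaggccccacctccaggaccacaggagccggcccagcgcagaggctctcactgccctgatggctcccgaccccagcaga
Col3a1: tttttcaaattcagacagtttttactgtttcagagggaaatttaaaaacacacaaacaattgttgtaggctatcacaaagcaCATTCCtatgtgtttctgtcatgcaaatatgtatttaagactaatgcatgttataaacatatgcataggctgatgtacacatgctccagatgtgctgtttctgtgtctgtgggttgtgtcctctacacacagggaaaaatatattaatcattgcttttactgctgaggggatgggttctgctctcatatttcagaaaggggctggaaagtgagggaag

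The libraries held 2.80 to 3.94 gigabases of aligned sequence over genes. *Yap1* was at 45.8 to 54.9 TPM (StringTie transcript abundance, scaled per length and to the same total in each library) in Ctrl colon and 41.3 to 47.0 TPM in Y/T KO colon, ranges that overlap, and at 98.6 to 110 and 69.4 to 72.1 TPM in bladder, where they did not. *Wwtr1* was not lower in Y/T KO as a group in either organ (16.8 to 21.5 and 17.9 to 22.7 TPM in colon, 32.5 to 61.6 and 48.3 to 60.8 TPM in bladder). A level over the whole gene does not show whether the floxed part was lost. The organs matched their labels: all 9 colonic epithelium markers tested were called lower in Ctrl bladder than in Ctrl colon, and 9 of 10 urothelium markers higher, where 25.6% and 25.9% of all genes were. All 12 smooth muscle markers were lower in Y/T KO in both organs, 9 of them in colon and 6 in bladder at an unadjusted p under 0.05 and none after adjustment. Over all genes 4.59% in colon and 8.2% in bladder were lower at that level, and 0.08% and 0.219% after adjustment. The sum of the 12 markers was 9712 to 10837 TPM in Ctrl colon, 6472 to 7640 in Y/T KO colon, 43466 to 57484 in Ctrl bladder, and 23138 to 41874 in Y/T KO bladder. The 12 fibroblast markers were 6 lower and 6 higher in each organ, with sums of 1705 to 2050 and 1636 to 2109 TPM in colon, and 5109 to 5988 and 5282 to 5851 TPM in bladder. At an unadjusted p under 0.05, 0 of them were lower or higher in colon. In bladder 1 was lower and 3 were higher at that level, where 8.2% and 6.64% of all genes were, and none was called. In RNA from whole organs fewer cells of a type and less RNA per cell cannot be told apart.

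Collagen transcripts were a larger share of the bladder than of the colon. The 44 genes summed to 2143 ± 193 TPM in Ctrl colon, 2615 ± 484 in Y/T KO colon, 9792 ± 1541 in Ctrl bladder, and 7414 ± 1398 in Y/T KO bladder (mean ± SD, n = 3 each), or 0.194% to 0.311% of all transcripts in the colon libraries and 0.637% to 1.13% in the bladder libraries. Within each organ the sums of the genotypes overlapped. Fibrillar chains made up 63.2% to 66.9% of the collagen sum in the colon and 68.8% to 72.0% in the bladder. Basement membrane chains were 6.90% to 8.85% of the sum in Ctrl colon and 9.37% to 12.4% in Y/T KO colon, which did not overlap, and 6.22% to 8.54% over both bladder groups. Beaded filament chains were 13.4% to 20.5% over all libraries, whereas transmembrane chains never passed 0.353%. The separation in colon was not particular to basement membrane chains. Beaded filament chains were 19.1% to 20.5% in Ctrl colon and 16.0% to 18.5% in Y/T KO colon. Multiplexin chains were 2.54% to 2.63% and 2.64% to 3.20%, and transmembrane chains 0.111% to 0.155% and 0.323% to 0.353%, likewise without overlap.

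**Figure D1:**
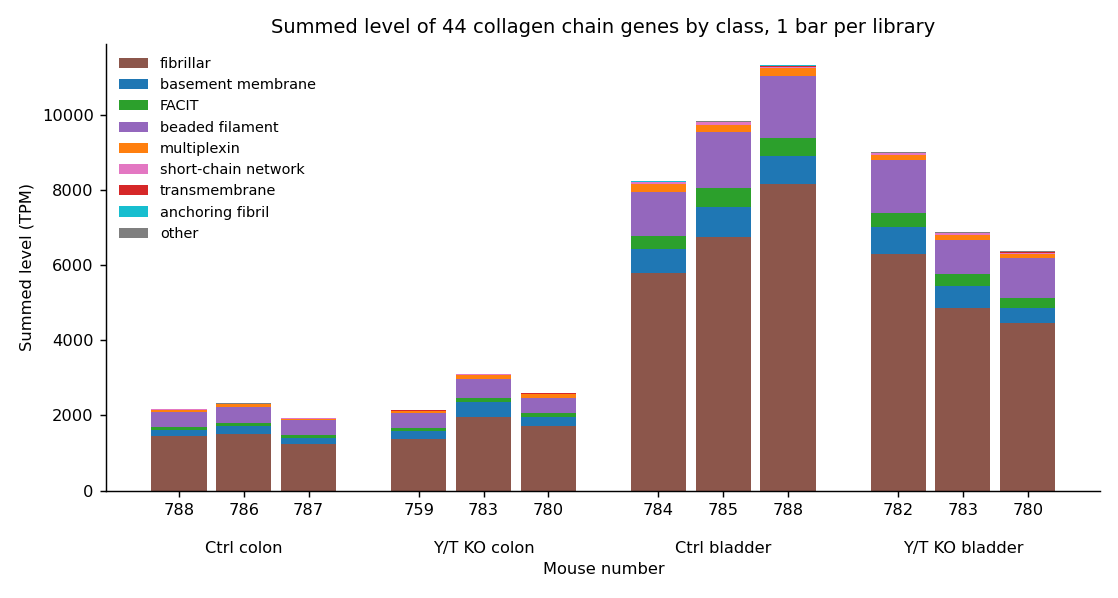
Summed TPM of the 44 collagen chain genes (y axis) in each of the 12 libraries (bars, labelled by mouse number and grouped by organ and genotype), with each class of collagen as a colored segment. Every bladder bar, from 6366 to 11316 TPM, is above every colon bar, from 1937 to 3109 TPM, and fibrillar chains are the largest segment in all of them.

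The most abundant chains kept nearly the same order in each group, while genes further down did not. *Col3a1*, the single chain of type III collagen, had the highest mean in all 4 groups, followed by *Col1a2*, then by *Col1a1* and *Col6a1* in either order, and then by *Col6a2*, *Col4a1*, and *Col4a2*. By contrast, *Col6a4* was 21st in Ctrl colon and 37th in Ctrl bladder, and *Col11a1* was 31st and 21st. *Col3a1*, *Col1a2*, and *Col1a1* together made up 57.8% to 67.8% of the collagen sum of a library. *Col1a2* was above *Col1a1* in every library, at a ratio of *Col1a1* to *Col1a2* of 0.438 to 0.626, although the type I molecule holds more of the *Col1a1* chain. Genes with at least 100 TPM numbered 5 to 7 in a colon library and 10 to 14 in a bladder library. At the other end, *Col2a1*, the chain of cartilage fibrils, was listed at 0 in 9 libraries and reached 0.0284 TPM, and *Col10a1* was at most 0.0974 TPM, with a gene on the opposite strand, *Nt5dc1*, over its span. Listed under 0.5 TPM in most libraries of both organs, and so tested in neither, were 7 genes: *Col2a1*, *Col9a1*, *Col9a3*, *Col10a1*, *Col19a1*, *Col22a1*, and *Col26a1*. The highest value of any of them was 1.96 TPM, that of *Col9a3* in 1 Ctrl bladder library. A further 8 (*Col4a3*, *Col4a4*, *Col4a6*, *Col6a6*, *Col11a1*, *Col11a2*, *Col17a1*, and *Col25a1*) reached the filter in the bladder but not in the colon, so the tests covered 29 genes for colon and 37 for bladder.

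*Col3a1* shares 141 bases on the same strand with the short gene *Gm47302*, which was itself listed at 249 to 848 TPM in colon and 1880 to 2401 TPM in bladder, so the reads of that stretch may have been split between them.

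In the colon *Col23a1* was the only collagen gene that passed the test, and the other collagen genes mostly had higher values in Y/T KO without passing the test. Of the 44 genes, 29 passed the filter (0.5 TPM or more in 3 or more of the 6 colon libraries), and 22 of these were higher and 7 lower in Y/T KO, while 50.9% of all 17500 genes tested were higher. The median log2 fold change of the 29 was 0.29, against 0.01 over all genes. At an unadjusted p under 0.05, 9 were higher, where 5.14% of all genes were, and 1 was lower, where 4.59% of all genes were. After scaling, 7 were higher without overlap of the groups, where 8.24% of all genes were, and 1 lower, where 7.87% were. After Benjamini-Hochberg adjustment over all genes in limma, 1 collagen gene was called higher and 0 lower, where the shares of all genes were 0.0571% and 0.08%.

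*Col23a1*, which encodes a transmembrane collagen whose outer part can be shed, was at 1.63, 1.67, and 1.91 TPM in the Ctrl colon of mice 788, 786, and 787, the order used for Ctrl colon from here on. In Y/T KO colon it was at 6.88, 8.25, and 6.10 TPM in mice 759, 783, and 780, likewise. Every Y/T KO library was thus well above every Ctrl library. It rose 3.98-fold (difference 1.99 ± 0.23 (SE) in log2, n = 3 each, adjusted p = 0.0329 by limma). The direction held in all 16 alternative settings and the call in 10 of them: it was lost without the filter on low values (adjusted p = 0.0728) and without any 1 library except that of Y/T KO mouse 759, where the adjusted p was 0.0979 to 0.138. The other transmembrane chain tested in colon, *Col13a1*, was at 0.501 to 2.05 TPM in Y/T KO and 0.744 to 1.11 TPM in Ctrl.

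The type IV chains *Col4a1* and *Col4a2*, which start from the shared stretch printed above, were both higher at an unadjusted p under 0.05. *Col4a1* was at 63.8, 122, and 64.0 TPM in Ctrl against 120, 231, and 114 TPM in Y/T KO (difference 0.92 ± 0.32 (SE) in log2, adjusted p = 0.461 by limma). The groups overlapped, since Ctrl mouse 786 lay above Y/T KO mice 759 and 780, but not after the scaling used for the test, which divided mouse 786 by 1.11. *Col4a2* was at 74.9, 66.8, and 70.9 TPM in Ctrl against 73.3, 139, and 117 TPM in Y/T KO (0.62 ± 0.24, adjusted p = 0.488), and here Y/T KO mouse 759 lay within the Ctrl range. *Col4a5*, a chain of a separate type IV molecule, was at 11.1 to 15.8 TPM in Ctrl against 9.71 to 15.3 TPM in Y/T KO.

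*Col18a1*, a basement membrane proteoglycan whose end fragment is endostatin, was at 19.8, 20.9, and 18.4 TPM in Ctrl against 23.6, 38.7, and 47.8 TPM in Y/T KO. The groups did not overlap, and mouse 759 was the Y/T KO mouse nearest to Ctrl (difference 0.87 ± 0.25 (SE) in log2, adjusted p = 0.385 by limma). Without mouse 759 the value was 1.16 (adjusted p = 0.0658). *Slc19a1* lies over part of *Col18a1* on the opposite strand and was at 8.12 to 9.64 TPM in Ctrl against 9.49 to 11.6 TPM in Y/T KO. *Col15a1*, the other multiplexin, was at 35.5, 38.8, and 32.6 TPM in Ctrl against 33.0, 52.4, and 35.4 TPM in Y/T KO.

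Among fibrillar chains 7 of the 8 tested were higher, 1 of them at an unadjusted p under 0.05, with a median log2 fold change of 0.29. *Col1a2* was at 352, 326, and 295 TPM in Ctrl against 369, 489, and 458 TPM in Y/T KO, without overlap (0.47 ± 0.16 (SE), limma adjusted p = 0.461). *Col1a1*, its partner chain, was at 187, 143, and 143 TPM in Ctrl against 165, 260, and 233 TPM in Y/T KO, with overlap through mouse 759. *Col3a1* was at 793, 905, and 701 TPM in Ctrl against 730, 1048, and 869 TPM in Y/T KO.

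Type V collagen starts fibrils and sets their width. *Col5a1* was at 42.6, 39.7, and 36.4 TPM in Ctrl against 38.0, 58.4, and 47.2 TPM in Y/T KO. *Col5a2* was at 60.2, 70.6, and 55.3 TPM in Ctrl against 60.3, 81.8, and 80.4 TPM in Y/T KO. In both chains mice 783 and 780 were above all Ctrl mice and mouse 759 was not. *Col5a3* was at 14.8, 15.2, and 12.4 TPM in Ctrl against 12.2, 19.1, and 11.9 TPM in Y/T KO. *Col27a1*, a long fibrillar chain, was at 3.81, 4.72, and 4.49 TPM in Ctrl against 4.41, 7.11, and 6.73 TPM in Y/T KO. Both overlapped.

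In the smaller classes *Col6a5* was the only gene lower at an unadjusted p under 0.05. It encodes a type VI chain and was at 7.73, 30.3, and 5.48 TPM in Ctrl against 3.59, 1.42, and 3.52 TPM in Y/T KO (difference -1.97 ± 0.63 (SE) in log2, adjusted p = 0.445 by limma). Ctrl mouse 786 stood apart from the other Ctrl mice, and without it the value was -1.30 (adjusted p = 0.626). Its neighbor on chromosome 9, *Col6a6*, was under the filter and was also highest in mouse 786 (1.94 TPM, against 0.308 and 0.586 TPM in the other Ctrl mice and 0.0339 to 0.186 TPM in Y/T KO). 

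The main type VI chains differed less. *Col6a1* was at 202, 212, and 196 TPM in Ctrl against 190, 241, and 197 TPM in Y/T KO. *Col6a2* was at 151, 143, and 143 TPM in Ctrl against 136, 206, and 152 TPM in Y/T KO. *Col6a3* was at 49.9, 57.1, and 47.3 TPM and 62.8, 69.4, and 59.9 TPM (difference 0.35 ± 0.12 (SE) in log2, adjusted p = 0.462 by limma). Of these only *Col6a3* had no overlap. *Col7a1*, the anchoring fibril chain, was at 0.532, 0.244, and 0.196 TPM in Ctrl against 1.01, 0.628, and 1.57 TPM in Y/T KO (1.49 ± 0.50 (SE), limma adjusted p = 0.447), without overlap but close to the filter. 

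Of the 5 FACIT chains tested, *Col16a1* was the 1 with an unadjusted p under 0.05. It was at 28.0, 22.2, and 24.8 TPM in Ctrl against 24.2, 51.9, and 52.5 TPM in Y/T KO, with mouse 759 again inside the Ctrl range (0.73 ± 0.31 (SE), limma adjusted p = 0.512). *Col14a1* was at 29.7, 26.8, and 29.1 TPM in Ctrl against 31.8, 40.9, and 34.7 TPM in Y/T KO, without overlap (0.36 ± 0.16, adjusted p = 0.538). *Col12a1* was at 16.6, 21.9, and 15.0 TPM and 15.3, 15.9, and 16.9 TPM, and thus within the Ctrl range. Of the short-chain collagens, *Col8a1* was higher at an unadjusted p under 0.05 (10.2 to 14.3 TPM in Ctrl against 12.5 to 20.7 TPM in Y/T KO) and *Col8a2* was at 3.19, 2.83, and 3.09 TPM in Ctrl against 2.29, 1.83, and 2.90 TPM in Y/T KO.

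Library by library, Y/T KO mouse 759 lay nearest to Ctrl for several of these genes. With all libraries 9 collagen genes were higher at an unadjusted p under 0.05, and without mouse 759 the number was 15. Without any other single library it was 2 to 6. The counts in colon therefore moved by more than 1.5 times with single libraries of either group.

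**Figure D2:**
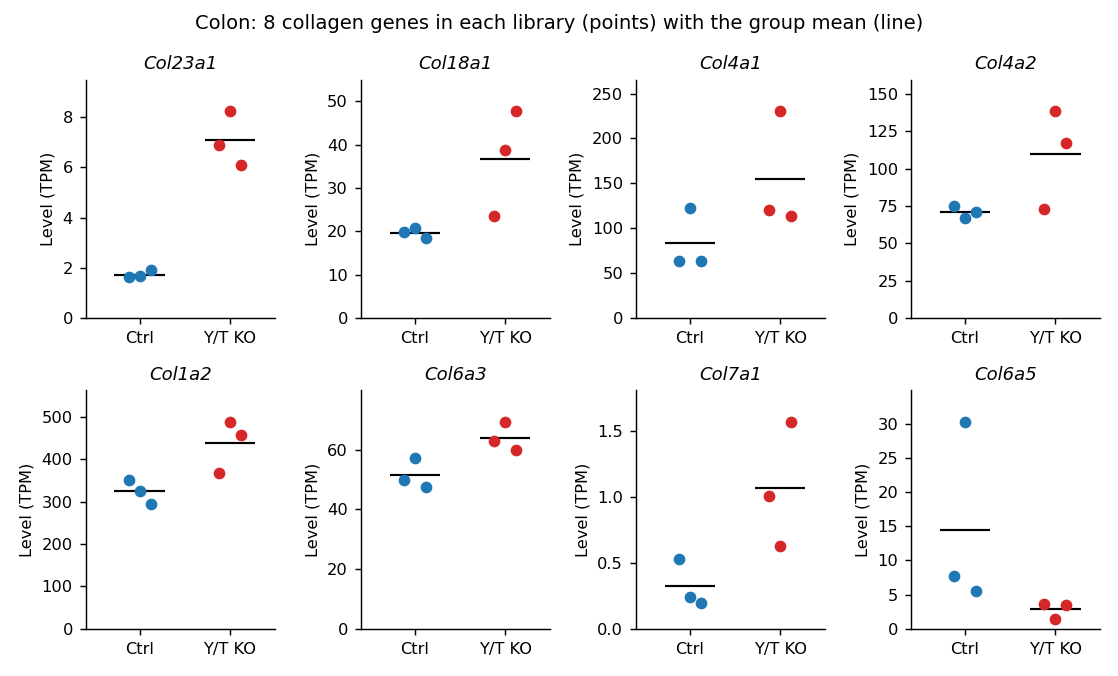
Level in TPM (y axis, from 0) of 8 collagen genes in each Ctrl (blue) and Y/T KO (red) colon library, with the group mean as a line. *Col23a1* has a wide gap between the groups (1.63 to 1.91 against 6.10 to 8.25 TPM), *Col4a1* and *Col4a2* overlap through single mice, and *Col6a5* has 1 Ctrl library at 30.3 TPM far above the rest.

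In the bladder the collagen genes mostly had lower values in Y/T KO, among them all 10 fibrillar chains tested, and none passed the test. Of the 44 genes, 37 passed the filter, and 29 of these were lower and 8 higher, while 49.8% of all 18237 genes tested were lower. The median log2 fold change was -0.43, against 0.00 over all genes. At an unadjusted p under 0.05, 13 were lower, where 8.2% of all genes were, and 0 were higher, where 6.64% of all genes were. After scaling, 9 were lower without overlap of the groups, where 11.4% of all genes were, and 1 higher, where 10.6% were. After adjustment over all genes in limma 0 were called in either direction, where the shares of all genes were 0.219% lower and 0.0823% higher. In 1 fit of all 12 libraries *Col8a2* was called lower (adjusted p = 0.0298, or 0.0306 when the mouse was a block).

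All 10 fibrillar chains tested were lower, 5 of them at an unadjusted p under 0.05, with a median log2 fold change of -0.64. *Col1a1* was at 1046, 1323, and 1676 TPM in Ctrl (mice 784, 785, and 788, the order used for Ctrl bladder from here on) and 1120, 698, and 625 TPM in the Y/T KO bladders of mice 782, 783, and 780, likewise. Y/T KO mouse 782 lay inside the Ctrl range (difference -0.75 ± 0.24 (SE) in log2, adjusted p = 0.237 by limma). *Col1a2* was at 1886, 2112, and 2810 TPM in Ctrl against 2146, 1502, and 1325 TPM in Y/T KO, and *Col3a1* at 2508, 2923, and 3188 TPM and 2689, 2362, and 2225 TPM, again with overlap through mouse 782.

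Of the minor fibrillar chains only *Col5a1*, *Col5a3*, and *Col27a1* were separate between the genotypes. *Col5a1* was at 107, 127, and 158 TPM in Ctrl against 98.9, 79.9, and 74.1 TPM in Y/T KO, without overlap (-0.62 ± 0.15 (SE), limma adjusted p = 0.163). *Col5a3* was at 37.9, 35.1, and 35.0 TPM in Ctrl against 25.6, 18.5, and 24.3 TPM in Y/T KO, also without overlap (-0.67 ± 0.13, adjusted p = 0.118). *Col27a1* was at 7.96, 11.0, and 9.97 TPM in Ctrl against 5.81, 3.76, and 7.24 TPM in Y/T KO, likewise (-0.81 ± 0.25, adjusted p = 0.234). *Col5a2*, the partner of *Col5a1*, overlapped, at 173, 205, and 238 TPM in Ctrl against 200, 174, and 162 TPM in Y/T KO. So did *Col11a1* (12.3 to 26.5 TPM in Ctrl against 8.48 to 12.7 TPM in Y/T KO). *Col11a2* (0.880 to 2.38 and 0.326 to 0.922 TPM) and *Col24a1* (3.83 to 7.14 and 1.68 to 5.10 TPM) overlapped as well.

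Outside the fibrillar class the clearest differences were in *Col15a1*, *Col8a2*, *Col12a1*, and *Col25a1*. *Col15a1*, a multiplexin at the border between basement membrane and fibers, was at 108, 110, and 117 TPM in Ctrl against 75.3, 65.2, and 58.6 TPM in Y/T KO (difference -0.76 ± 0.10 (SE) in log2, adjusted p = 0.0545 by limma). *Col8a2*, a short-chain collagen of sheet-like networks, was at 17.0, 24.1, and 15.1 TPM in Ctrl against 8.36, 4.88, and 6.05 TPM in Y/T KO (-1.53 ± 0.25, adjusted p = 0.0858). *Col12a1*, a FACIT chain of loaded fibers, was at 87.5, 125, and 132 TPM in Ctrl against 58.5, 68.8, and 43.2 TPM in Y/T KO (-1.02 ± 0.22, adjusted p = 0.146). *Col25a1*, a transmembrane chain, was at 5.83, 7.38, and 7.79 TPM in Ctrl against 4.52, 3.77, and 2.81 TPM in Y/T KO (-0.92 ± 0.22, adjusted p = 0.163). In all 4 genes every Y/T KO library was below every Ctrl library, as in 11.4% of all genes tested. In all 16 alternative settings each kept its direction.

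*Col18a1* was at 82.0, 79.2, and 75.5 TPM in Ctrl bladder and 71.1, 60.4, and 53.5 TPM in Y/T KO, without overlap (-0.36 ± 0.12 (SE), limma adjusted p = 0.246). The type IV chains *Col4a1* and *Col4a2* overlapped. *Col4a1* was at 311, 444, and 339 TPM in Ctrl against 361, 323, and 163 TPM in Y/T KO, and *Col4a2* at 239, 276, and 313 TPM against 257, 192, and 160 TPM. Of the type VI chains *Col6a2* had an unadjusted p under 0.05 (397, 519, and 585 TPM in Ctrl against 430, 266, and 320 TPM in Y/T KO, limma adjusted p = 0.242). *Col6a1* was at 556, 694, and 812 TPM and 721, 449, and 517 TPM, with overlap, and *Col6a3* at 186, 181, and 221 TPM and 164, 176, and 158 TPM, without overlap in TPM as deposited but with overlap after the scaling used for the test.

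The FACIT chains *Col14a1* and *Col16a1* overlapped in the bladder. *Col14a1* was at 171, 249, and 208 TPM in Ctrl against 206, 179, and 158 TPM in Y/T KO. *Col16a1* was at 90.8, 114, and 133 TPM in Ctrl against 109, 64.6, and 55.7 TPM in Y/T KO. *Col6a5* spread widely in both groups (38.0, 87.5, and 43.7 TPM in Ctrl against 86.8, 28.1, and 74.7 TPM in Y/T KO), as did *Col7a1* (3.34, 1.80, and 2.82 TPM and 2.18, 1.39, and 3.95 TPM). *Col23a1*, the gene called in the colon, was at 10.8, 5.22, and 5.33 TPM in Ctrl against 6.98, 7.83, and 9.99 TPM in Y/T KO (0.28 ± 0.33 (SE), adjusted p = 0.729). *Col6a4*, a type VI chain, was the only one of the 37 with every Y/T KO value (0.913 to 1.32 TPM) above every Ctrl value (0.556 to 0.708 TPM). Over all genes 10.6% were.

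Of the markers of other cells in the bladder none was called. All 6 mesothelium markers and 9 of 10 urothelium markers had lower values in Y/T KO, 2 and 3 of them at an unadjusted p under 0.05, where 8.2% of all genes were. The skeletal muscle markers summed to 1364 to 1990 TPM in Ctrl against 1265 to 6735 TPM in Y/T KO. Mouse 782, at 1265 TPM, was below the Ctrl range, whereas 783 and 780 were far above it (6101 and 6735 TPM). The adipocyte markers summed to 480 to 1952 TPM in Ctrl against 1339 to 2566 TPM in Y/T KO. The ranges overlapped for both lists. The smooth muscle markers summed to 41874 TPM for mouse 782, 27526 TPM for mouse 783, and 23138 TPM for mouse 780. The part of these values, and of the lower smooth muscle markers, in the collagen values was not tested. Mouse 782 was the Y/T KO mouse nearest to Ctrl for most of the abundant chains, and without it 16 collagen genes were lower at an unadjusted p under 0.05, against 8 to 14 without any other single library.

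**Figure D3:**
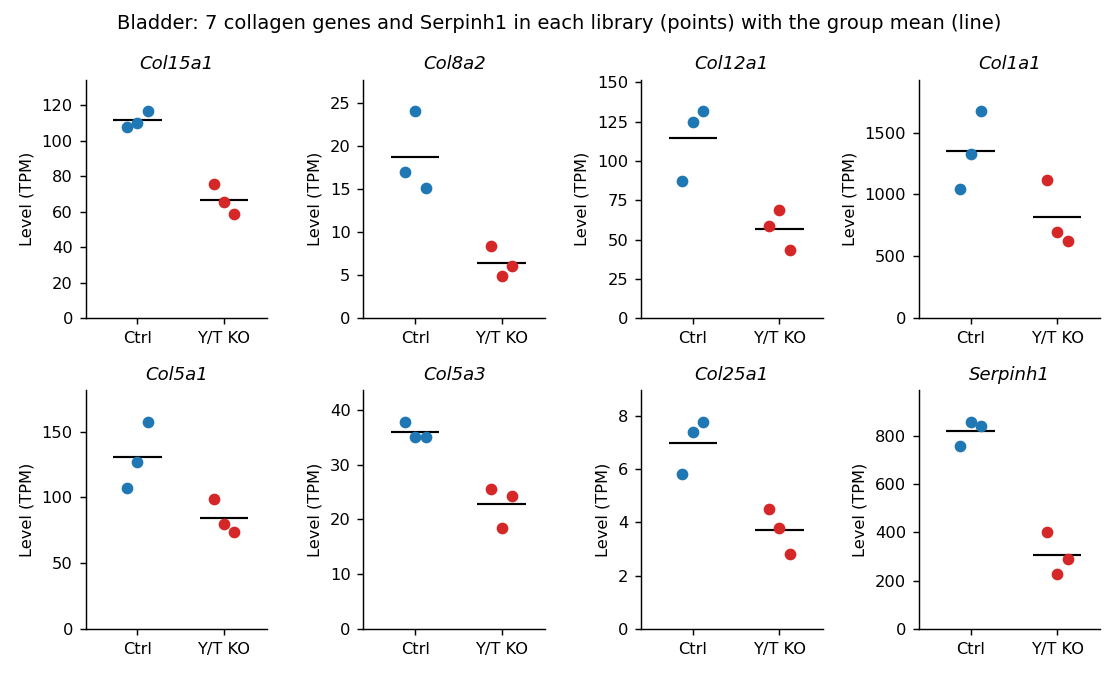
Level in TPM (y axis, from 0) of 7 collagen genes and of *Serpinh1* in each Ctrl (blue) and Y/T KO (red) bladder library, with the group mean as a line. In *Col15a1*, *Col8a2*, *Col12a1*, *Col5a1*, *Col5a3*, *Col25a1*, and *Serpinh1* every Y/T KO point is below every Ctrl point, and in *Col1a1* 1 Y/T KO library at 1120 TPM is among the Ctrl values.

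Ratios of partner chains within a library do not depend on how libraries are scaled against each other, and they are given here without a test. In the bladder the ratio of *Col5a1* to *Col5a2* was 0.618 to 0.662 in Ctrl and 0.457 to 0.495 in Y/T KO. The ratio of *Col1a1* to *Col1a2* was 0.555 to 0.626 and 0.465 to 0.522, and that of *Col6a1* to *Col6a2* was 1.34 to 1.40 and 1.61 to 1.69. In each of these pairs the genotypes did not overlap in the bladder, so the chains of a pair differed unequally. In the colon the same ratios overlapped between genotypes (0.563 to 0.709 and 0.587 to 0.713 for *Col5a1* to *Col5a2*, 0.438 to 0.530 and 0.447 to 0.531 for *Col1a1* to *Col1a2*, 1.34 to 1.48 and 1.17 to 1.39 for *Col6a1* to *Col6a2*). Other pairs were separate in colon instead. *Col6a1* to *Col6a3* was 3.72 to 4.14 and 3.03 to 3.47 in colon, and 3.00 to 3.84 and 2.55 to 4.40 in bladder. *Col6a5* to *Col6a6* was 13.2 to 17.8 and 19.2 to 42.0 in colon, and 5.01 to 8.45 and 7.22 to 12.4 in bladder. How often ratios of other genes are separate was not computed. The ratio of *Col8a1* to *Col8a2* was higher in Y/T KO in both organs, at 3.30 to 5.05 and 5.45 to 10.2 in colon, and 1.78 to 2.24 and 3.07 to 7.79 in bladder. The ratio of *Col4a1* to *Col4a2* overlapped in both organs and ran from 0.852 to 1.83 over all libraries.

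Of the genes that act on collagen, *Serpinh1*, which encodes the collagen chaperone HSP47, was called lower in the bladder. It was at 758, 859, and 842 TPM in Ctrl against 400, 226, and 289 TPM in Y/T KO, a clear gap, and fell by 1.46 on the log2 scale (SE 0.18, limma adjusted p = 0.0396). The direction held in all 16 alternative settings and the call in 6. It was lost, for instance, with TPM as deposited (adjusted p = 0.0653), without limma's trend and robust options (0.0878), in 1 fit of all 12 libraries (0.277), and in that fit with the mouse as a block (0.283). In the colon *Serpinh1* varied within groups by more than it differed between them (53.4 to 248 TPM in Ctrl against 86.6 to 238 TPM in Y/T KO). Next by p in the bladder was *Pcolce*, an enhancer of procollagen trimming, at 313, 218, and 277 TPM in Ctrl against 125, 108, and 81.4 TPM in Y/T KO (difference -1.37 ± 0.20 (SE) in log2, adjusted p = 0.0651 by limma). It was followed by *P3h1*, a prolyl 3-hydroxylase, at 30.2, 33.8, and 34.8 TPM in Ctrl against 23.4, 19.8, and 18.9 TPM in Y/T KO (difference -0.67 ± 0.11, adjusted p = 0.0838). Neither had overlap between the groups.

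By group, 11 of 14 hydroxylation and glycosylation enzymes were lower in the Y/T KO bladder, 7 of them at an unadjusted p under 0.05, with a median log2 fold change of -0.39. Over all genes 8.2% were lower and 6.64% higher at that level, and 0.219% were called lower. Of 12 chaperones and export factors 9 were lower, 5 at an unadjusted p under 0.05 and 1 called, and 1 was higher at that level. All 7 crosslinking enzymes were lower, 3 at an unadjusted p under 0.05, with a median of -0.33. Of 9 collagen receptors tested 6 were lower, 3 at that level. Of 7 processing genes tested 6 were lower, 1 at that level, and 1 was higher, also at that level. The fibril-binding small proteoglycans, which include decorin and fibromodulin, were 3 lower, 0 at that level, and 4 higher, 1 at that level.

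In the colon none of these genes was called, and over all genes 5.14% were higher and 4.59% lower at an unadjusted p under 0.05. Of 14 modifying enzymes 11 were higher, 1 at an unadjusted p under 0.05, with a median log2 fold change of 0.15. Of 12 chaperones and export factors 7 were lower, with 0 at an unadjusted p under 0.05 in either direction, and the 7 crosslinking enzymes were 3 lower and 4 higher, also with 0. The 10 collagen receptors were 6 lower, 2 at that level, and 4 higher, 0 at that level. Of 8 processing genes tested 4 were lower, 1 at that level, and 4 higher, 0 at that level. The 7 small proteoglycans tested were 3 lower, 2 at that level, and 4 higher, 2 at that level. The smallest p-value was that of *Ogn*, a small proteoglycan, at 100, 156, and 106 TPM in Ctrl against 84.4, 54.7, and 44.3 TPM in Y/T KO (difference -0.97 ± 0.25 (SE) in log2, adjusted p = 0.326 by limma). *Fmod*, another, was at 1.74, 1.80, and 1.42 TPM in Ctrl against 2.57, 3.73, and 4.39 TPM in Y/T KO (difference 1.07 ± 0.28, adjusted p = 0.333). *Itga1*, the integrin chain that binds type IV collagen, was at 20.5, 29.4, and 20.5 TPM in Ctrl against 16.1, 14.7, and 12.5 TPM in Y/T KO (difference -0.65 ± 0.17, adjusted p = 0.360). In each of the 3 genes the groups did not overlap.

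**Figure D4:**
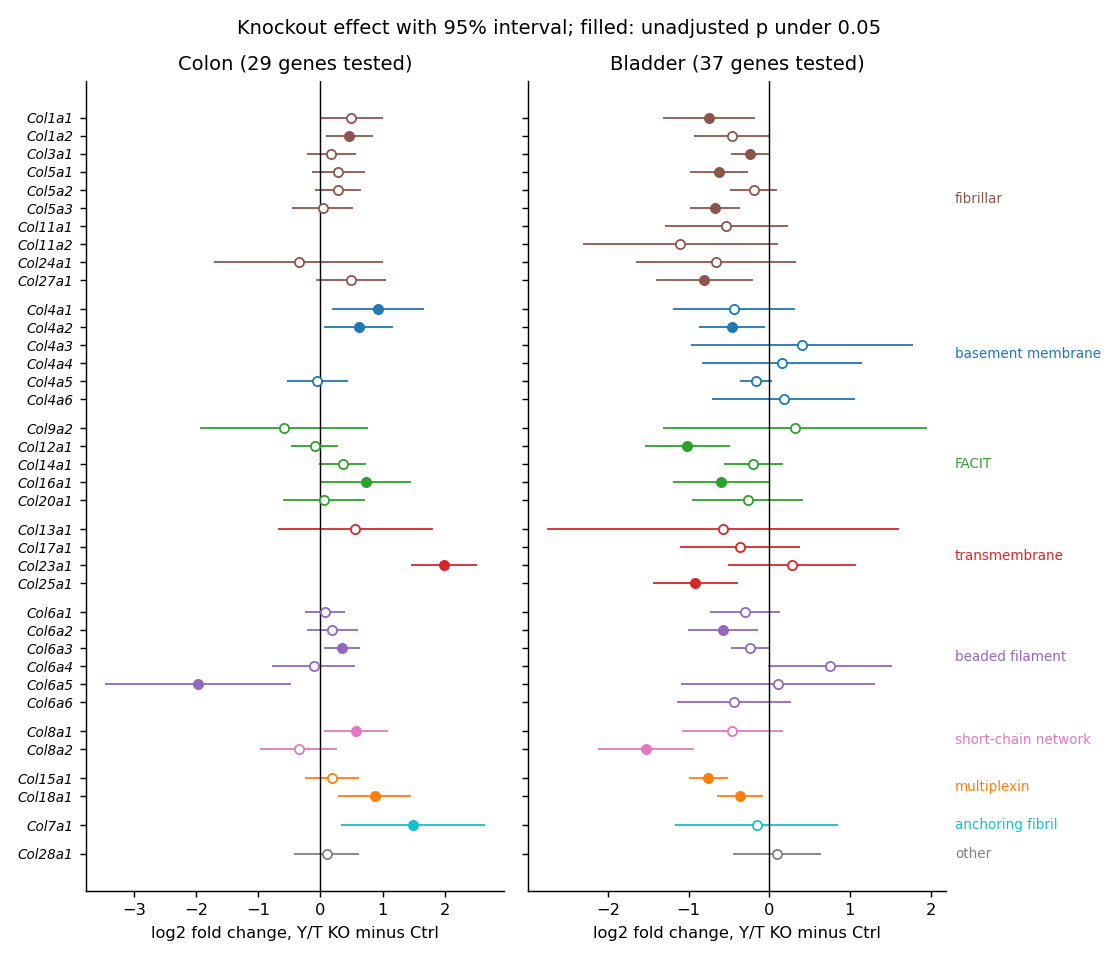
log2 fold change of Y/T KO minus Ctrl (x axes) with its 95% interval for each collagen gene tested in colon (left, 29 genes) and bladder (right, 37 genes), grouped and colored by class; filled points have an unadjusted p under 0.05. Most points are right of 0 in colon (22 of 29) and left of 0 in bladder (29 of 37), and all 10 fibrillar points in bladder are left of 0.

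Whether the knockout effect differed between the organs was tested as the tissue by genotype interaction. Of the 29 collagen genes tested, 26 had a lower effect in bladder than in colon and 3 a higher one, while 50.4% of all 16298 genes tested had a lower one. At an unadjusted p under 0.05, 19 were lower, where 7.49% of all genes were, and 1 was higher, where 5.15% of all genes were. After adjustment in limma 0 were called in either direction, where 0.0184% of all genes were called lower and 0.0307% higher. The median difference was -0.91 on the log2 scale, against -0.01 over all genes.

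The smallest adjusted p-values belonged to *Col15a1* (difference -0.94 ± 0.22 (SE), limma adjusted p = 0.191), *Col23a1* (-1.71 ± 0.41, adjusted p = 0.191), and *Col18a1* (-1.24 ± 0.30, adjusted p = 0.196). For *Col23a1* the effect was 1.99 in colon and 0.28 in bladder, and for *Col18a1* 0.87 and -0.36. Without Y/T KO colon mouse 759 *Col18a1* was called (-1.53, adjusted p = 0.0131), and without any other library 0 collagen genes were. For *Col1a1* the difference was -1.25 ± 0.34 (SE, limma adjusted p = 0.225), from 0.50 in colon and -0.75 in bladder. All 8 fibrillar chains tested in both organs had a lower effect in bladder, 6 of them at an unadjusted p under 0.05. The gene with a higher effect in bladder at that level was *Col6a5* (2.08 ± 0.90 (SE), limma adjusted p = 0.380), whose colon value was -1.97 with Ctrl mouse 786 and -1.30 without it.

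Between the organs most collagen genes were higher in the bladder. In Ctrl, 32 of the 37 genes tested were called higher in bladder, where 25.9% of all 19439 genes were, and 1 was called lower, where 25.6% were. In Y/T KO, 23 were called higher and 2 lower, where the shares of all genes were 26.1% and 26.3%. The median log2 difference of the 37 genes was 1.74 in Ctrl and 1.00 in Y/T KO, against -0.01 and 0.00 over all genes. A gene entered these fits if it passed the filter in either organ. *Col4a3*, *Col4a4*, *Col4a6*, *Col6a6*, *Col11a1*, *Col11a2*, *Col17a1*, and *Col25a1* passed it only in the bladder. For these genes a higher value in bladder was nearly fixed by the filter, and their calls add no support. They are part of the counts and medians above, which were not computed without them. Mice of both organs entered these fits as separate libraries, and the calls were the same in number with the mouse as a block (33 in Ctrl and 25 in Y/T KO).

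The largest differences in Ctrl were in genes that passed the filter only in the bladder, so their direction was nearly fixed by that filter. With colon values this low, their size also depends on the 0.1 TPM added before the log. For *Col25a1* it was 2.68 to 4.99 over 22 alternatives. *Col17a1*, the transmembrane collagen of hemidesmosomes in layered epithelia, was at 0.0224 to 0.198 TPM in Ctrl colon and 5.35 to 11.8 TPM in Ctrl bladder (log2 difference 5.07 ± 0.42 (SE)). *Col11a1*, a fibrillar chain, was at 0.231 to 0.421 and 12.3 to 26.5 TPM (5.05 ± 0.35), and *Col25a1* at 0.0891 to 0.151 and 5.83 to 7.79 TPM (4.77 ± 0.28). Among abundant chains *Col1a1* differed 7.07-fold in Ctrl (2.82 ± 0.24) and 3.03-fold in Y/T KO (1.60 ± 0.24), and *Col14a1* 6.05-fold and 4.17-fold. *Col3a1* differed less, at 3.00-fold and 2.29-fold. Thus the ratio of *Col3a1* to *Col1a1* was 3.73 to 6.33 over the colon libraries and 1.90 to 3.56 over the bladder libraries, without overlap.

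*Col6a4* was called lower in bladder in both genotypes (-2.75 ± 0.28 (SE) in Ctrl and -1.87 ± 0.28 in Y/T KO), at 3.27 to 5.94 TPM over the colon libraries and 0.556 to 1.32 TPM over the bladder libraries. Its neighbors *Col6a5* and *Col6a6* were called higher in bladder in both genotypes, *Col6a5* 4.01-fold in Ctrl and 17.3-fold in Y/T KO, and *Col6a6* 8.12-fold and 25.8-fold. *Col6a6* passed the filter only in the bladder. *Col23a1* was called higher in bladder in Ctrl (1.64 ± 0.29 (SE), limma adjusted p = 0.000568), where the ranges were 1.63 to 1.91 and 5.22 to 10.8 TPM. In Y/T KO the ranges overlapped (6.10 to 8.25 and 6.98 to 9.99 TPM, -0.06 ± 0.29, adjusted p = 0.886). *Col13a1* was called lower in Y/T KO bladder (adjusted p = 0.0499), a call lost in most alternative settings.

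The lists of cells that could carry collagen also differed between the organs. In Ctrl all 12 smooth muscle markers and 10 of 12 fibroblast markers were called higher in bladder, and so were all 10 endothelial markers, where 25.9% of all genes were. This was not particular to these lists. Called higher were also 8 of 9 macrophage, 6 of 7 adipocyte, 5 of 7 glia and Schwann, and 4 of 6 mesothelium markers. In the last 3 of these lists 1, 2, and 1 were called lower. Their part in the collagen differences was not tested. With TPM as deposited, in which the median gene was itself 0.24 higher in bladder on the log2 scale in Ctrl and 0.26 in Y/T KO, the share of higher among all called genes went from 50.3% to 64.2% in Ctrl and from 49.9% to 64.8% in Y/T KO, while the collagen genes called higher were 32 and 27.

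**Figure D5:**
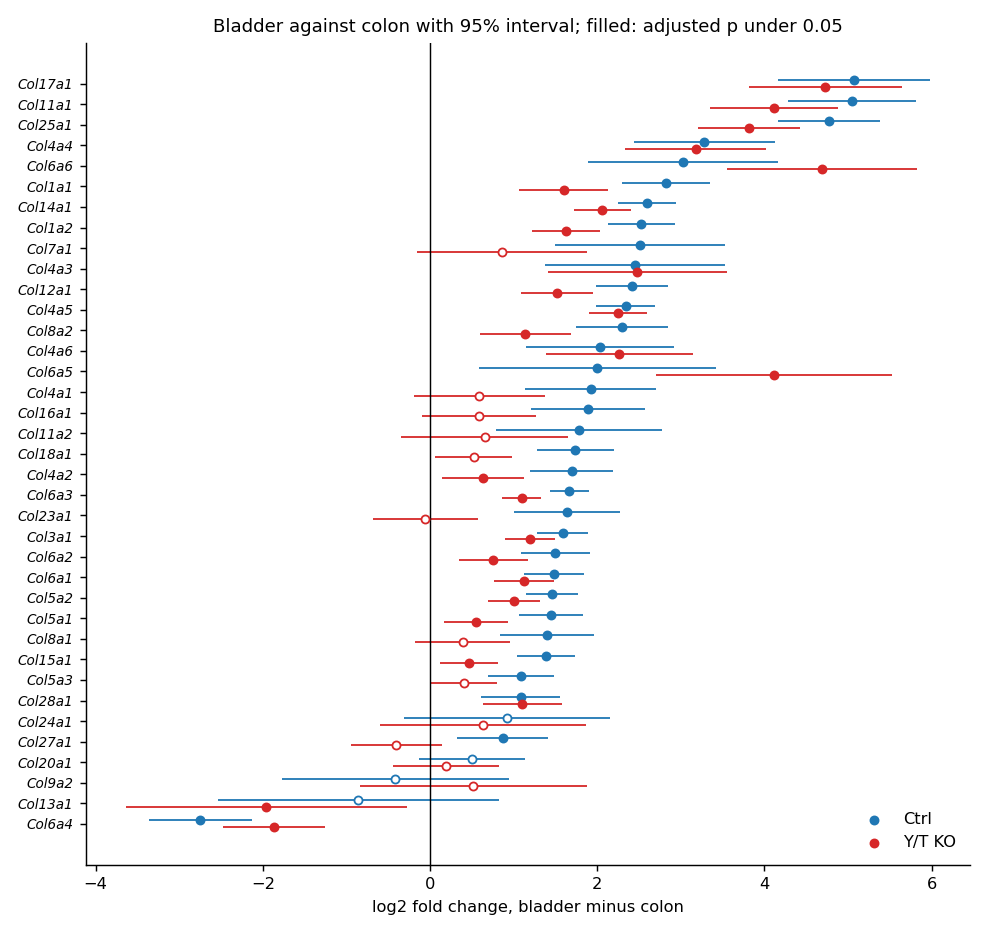
log2 fold change of bladder minus colon (x axis) with its 95% interval for the 37 collagen genes tested, in Ctrl (blue) and Y/T KO (red), ordered by the Ctrl value; filled points have an adjusted p under 0.05. All but 3 Ctrl points are right of 0, *Col6a4* is the only Ctrl gene called left of 0 (-2.75), and *Col23a1* is at 1.64 in Ctrl and -0.06 in Y/T KO. Genes that passed the filter only in the bladder are included.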

How the data were processed

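RNA from 12 libraries (TruSeq Stranded mRNA, NextSeq 500) was analysed from the gene tables of each library. The submitters' processing notes name bcl2fastq, FastQC, HISAT2, StringTie, and DESeq2, without versions, and the build GRCm38. The deposited tables hold coverage, FPKM, and TPM per gene, which the authors made with StringTie. Coverage was used only for the aligned gigabases of each library, FPKM only for an alternative, and TPM for all else. The setting for strand was not given in the sources used here. The tables hold no read counts, so no count test was run and counting error was not estimated. Depth was 2.80 to 3.94 gigabases.

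TPM was summed by gene ID, divided by median-of-ratios size factors, and tested as log2(value + 0.1) with limma 3.58.1 (R 4.3.3, trend and robust options) over all genes that reached 0.5 TPM in 3 or more libraries of an organ. Fold changes are on that scale, which understates those of low genes. Printed levels are TPM as deposited. Colon and bladder were fitted separately, the interaction and the organ comparisons over all 12 libraries. P-values were adjusted by Benjamini-Hochberg over all genes tested, called at 0.05, and two-sided. The code of the fits was tested on simulated data, whose outcome is not used here. Python 3.11.15 was used for the rest. With 1 mouse per library the spread is that between mice.

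The members and the gene lists were chosen with earlier results of these data known. Values of every library are given for members called in a knockout comparison, for those with an unadjusted p under 0.05 and groups that did not overlap, and for those with a group mean of at least 100 TPM. Of the genes acting on collagen, those called and the 3 with the smallest p per organ are named. Marker lists of glia, macrophages, and cartilage, tested with the others, held 3 lower and 3 higher, 1 lower and 8 higher, and 1 lower and 1 higher in the Y/T KO colon, and 2 and 5, 6 and 3, and 2 and 1 in the Y/T KO bladder, with none called. At an unadjusted p under 0.05, 2 glia, 3 macrophage, and 1 cartilage marker were higher in the Y/T KO colon and 0 lower. Over all genes 5.14% were higher and 4.59% lower. All 6 adipocyte markers tested were lower there, 2 at that level. The adipocyte list summed to 151 to 282 TPM in Ctrl colon against 77.3 to 162 TPM in Y/T KO colon, with overlap. The part of these values in the collagen values was not tested.

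By the labels mice 788, 783, and 780 gave both organs, so these libraries are paired. The correlation of their deviations from the group means across genes was -0.016, 0.089, and 0.059. The mouse was a block in an alternative, with a consensus correlation of 0.042 to 0.050. Other alternatives were pseudocounts of 0.5 and 1 TPM, no filter, a mean of at least 1 TPM, TPM and FPKM as deposited, quantile normalization, no trend or robust option, and each library left out.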

Additional observations from a re-analysis of the deposited data

How the results depend on the processing

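The 1 collagen gene called in the colon was lost (0 called) without the filter on low values, and 0 to 1 were called when a library was left out. Without the filter 11 of 43 tested were lower and 32 higher in the Y/T KO colon, against 7 and 22 of 29. In the bladder 0 were called, but 1 in a fit of all 12 libraries, also with the mouse as a replicate block. For the difference of the effect 0 to 1 were called when a library was left out. The replicate block changed no other count of called collagen genes (1 in colon, 0 for the difference, 33 in Ctrl and 25 in Y/T KO between organs) and, like the same fit without it, lost the call of *Serpinh1*. Of the uncalled collagen values some changed sign (log2, lowest to highest over the libraries left out). In colon these were *Col12a1* (-0.17 to 0.00096, the latter without Ctrl 786), *Col15a1* (-0.012 without Y/T KO 783 to 0.32), *Col6a1* (-0.028 without Y/T KO 783 to 0.14), and *Col5a3* (-0.18 without Y/T KO 783 to 0.14, -0.018 without Ctrl 787, and -0.0022 with TPM as deposited). In bladder they were *Col6a5* (-0.17 without Y/T KO 782 to 0.58, with -0.11 and -0.05 without Ctrl 784 and 788 and -0.09 without Y/T KO 780) and *Col7a1* (-0.53 to 0.16 without Y/T KO 783, and 0.04 without Ctrl 784). Between organs in Y/T KO it was *Col23a1* (-0.19 to 0.080 without bladder 782, 0.05 without colon 783, and 0.22 with TPM and 0.029 with FPKM as deposited). Of the genes acting on collagen, *Serpinh1* (-0.50 to 0.59), *Pcolce* (-0.28 to 0.29), and *P3h1* (-0.04 to 0.35) in colon and *Ogn* in bladder (-0.48 to 0.05) took both signs over 16 alternatives. So did *Ogn* between organs in Ctrl (-0.43 to 0.09, of 22) and the difference of *Itga1* (-0.01 to 0.27, of 21). The causes were not tested. With no read counts, how far depth limits the values of low genes was not estimated.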
